A study of Rattus norvegicus with 56 samples.

Results

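The genes described here are the cold shock genes Rbm3 and Cirbp and the heat shock or chaperone genes Hsph1, Dnajb1, Hspb1, Hspa8 and Hspa5, measured in the rat medial hypothalamus. They were chosen by name, with results of these same arrays in view, and each was read from the transcript cluster (the set of array probes summarised to 1 value) that carries its symbol and no other. If a gene had several such clusters, the brightest by mean log2 intensity over all 56 arrays was to be taken, but each measured gene had exactly 1. Of the 7 genes, 6 had a cluster of their own, out of 14557 genes that had one, and Hspa8 had none and is left out. Because the choice of genes is not independent of the arrays, each adjusted p-value below only places a gene in a fit over all 36685 clusters and is no independent evidence.

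The 56 arrays came from 13 groups of male Wistar rats, 3 months old and weighing 300 g ± 25 g. VAGX-I (n = 5) and VAGX-III (n = 3) rats had the vagus nerve cut on both sides below the diaphragm, and SHAM-I (n = 4) and SHAM-III (n = 4) rats had the same operation without cutting the nerves, each with 30 days of recovery. The remaining pretreatments were subcutaneous injections over 10 days with the cyclooxygenase inhibitors indometacin (INDOM-I, n = 3, and INDOM-III, n = 5), celecoxib (CEL-I and CEL-III, n = 5 each) or SC-560 (SC560-I and SC560-III, n = 5 each), or with saline (NaCl-I, n = 4, and NaCl-III, n = 3). On the next day the groups ending in -I received 10 µg of lipopolysaccharide (LPS, a bacterial cell wall component that starts inflammation) in 100 µl saline into the peritoneal cavity, the groups ending in -III received the same volume of saline, and tissue was taken 120 min later. CNT rats (n = 5) were left untouched. Doses of the drugs and the solvents are not stated in the sources at hand, and body temperature was not analysed here. The dissected tissue, mainly the medial hypothalamus with the paraventricular nucleus, held all cell types of the region, so fewer cells of a type and less RNA per cell cannot be told apart.

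Rbm3 and Cirbp encode small RNA-binding proteins whose transcripts are known to rise in mildly cooled mammalian cells and to drop on warming. Hsph1, Dnajb1 and Hspb1 encode cytosolic chaperones that the heat shock factor HSF1 switches on when proteins unfold, while Hspa5 (BiP) is the main chaperone of the endoplasmic reticulum and answers to protein load there. In the hypothalamus, LPS is known to cause fever through prostaglandin E2, which cyclooxygenases help to make. Celecoxib prefers cyclooxygenase-2, SC-560 prefers cyclooxygenase-1, and indometacin blocks both.

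The promoters of the measured genes are shown for the known control motifs of cold, heat shock and endoplasmic reticulum stress genes. RefSeq promoters (250 bases before to 50 after the start site, build GRCr8) were found for all 7 genes, out of 33469. The motifs were searched on both strands: a heat shock element of 2 units (GAANNTTC or TTCNNGAA) or of 3 units (GAANNTTCNNGAA or TTCNNGAANNTTC), the mild cold response element (TCCCCGCC), and the endoplasmic reticulum stress element (CCAAT and CCACG with 9 bases between). Only bases before the start site are printed, 5' to 3' on the gene's strand, with each motif match in capitals.
Rbm3: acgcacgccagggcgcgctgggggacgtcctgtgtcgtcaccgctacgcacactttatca
Cirbp: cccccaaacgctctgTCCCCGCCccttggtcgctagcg
Hsph1: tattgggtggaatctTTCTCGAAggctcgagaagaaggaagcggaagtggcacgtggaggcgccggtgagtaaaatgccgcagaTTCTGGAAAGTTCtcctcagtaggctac
Dnajb1: gcatcgggaggggcgGAAGGTTCtgg
Hspb1: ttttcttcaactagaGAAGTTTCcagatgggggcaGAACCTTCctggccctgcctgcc
Hspa5: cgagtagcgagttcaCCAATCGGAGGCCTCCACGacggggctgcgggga
Coordinates below are those of the printed bases. In Cirbp (chr7:10189688-10189725, minus strand) the cold response element began 235 bases before the start site, and it occurred in 4.79% of all promoters. Hsph1 (chr12:10427248-10427359, plus strand) held a heat shock element of 3 units 36 bases before the start site, found in 0.798% of promoters, which holds a pair of overlapping 2-unit matches, and a further one of 2 units 105 bases before it. Dnajb1 (chr19:41431142-41431167, minus strand) had an element of 2 units 11 bases before the start site and another, not printed, 17 bases after it, and Hspb1 (chr12:26432388-26432445, minus strand) had 2 of these, 129 and 109 bases before it. The 2-unit form was common, in 15.9% of promoters, and the 3-unit form contains it. Hspa5 (chr3:38452958-38453006, plus strand) carried the endoplasmic reticulum stress element 43 bases before the start site, a match found in 0.0657% of promoters. Rbm3 (chrX:17020845-17020904, plus strand, the last bases before its start site) matched none of these letters in its promoter window. A match or its lack describes the letters and not the binding of a factor.

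Before the results, some arrays stood apart from their labels. The interferon response list, 13 of 18 genes measured, is given as its mean log2 intensity after centring each gene over the arrays. It lay between 0.15 and 2.67 in 20 arrays from LPS-treated rats, but between -1.21 and -0.88 in the other 6, which are SHAM-I array 6, VAGX-I arrays 11 and 12, CEL-I array 21 and INDOM-I arrays 49 and 50. In 28 arrays from saline-challenged or untouched rats it lay between -1.45 and -0.70, but SC560-III array 36 and CNT array 4 were at 2.76 and 1.89. VAGX-I array 46 had a hypothalamus marker level (14 of 17 genes measured) of -2.16, against -0.43 to 0.37 in the other arrays, and the highest choroid plexus level (6 of 7 genes measured), 3.71. The array numbers restart the order of groups at 41, so arrays 1 to 40 and 41 to 56 are treated as 2 sets. All INDOM arrays lie in the second set and all CEL and SC560 arrays in the first, so that drug and set cannot be told apart in those comparisons. CNT, NaCl-I and NaCl-III have 1 array each in the second set, so INDOM against them is largely a contrast of sets too. Results are given with and without the arrays in doubt where they rest on them.

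Rbm3 stood out in INDOM-I. Its log2 intensity was 8.65, 9.03 and 7.12 in INDOM-I arrays 49, 50 and 51. It was 6.52, 7.51, 6.93, 7.22 and 7.07 in INDOM-III. Rats given saline for 10 days had 6.85, 6.53, 6.49 and 6.58 in NaCl-I and 6.68, 6.77 and 6.47 in NaCl-III. Arrays 49 and 50 were above every other array of the series, whose 54 values ran between 6.33 and 7.54, while array 51 lay inside that range. INDOM-I averaged 8.27 ± 1.01 (SD, n = 3), and the other 12 groups averaged between 6.61 in NaCl-I and 7.20 in VAGX-I. In the order of the group means, the step between INDOM-I and VAGX-I (7.20 ± 0.42, SD, n = 5) was the only one of 12 that exceeded the SDs of both neighbours, and it did so by little (1.07 against an SD of 1.01).

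**Figure D1:**
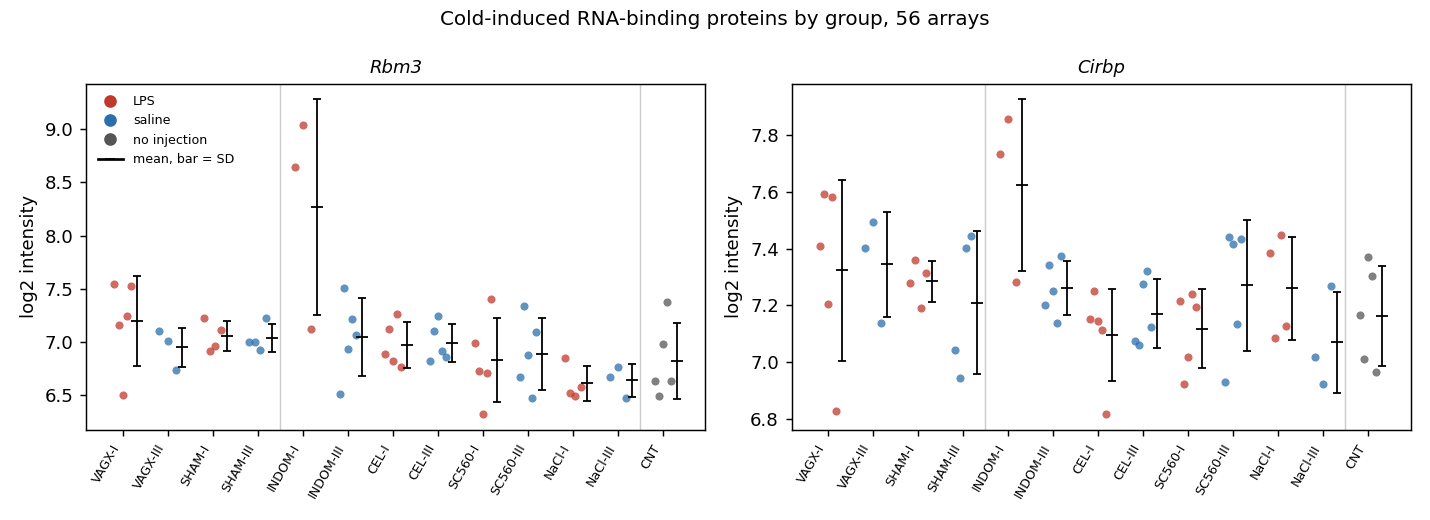
Log2 intensity of Rbm3 (left) and Cirbp (right) in each of the 56 arrays by group, 1 point an array, red after LPS, blue after saline and grey without injection, with the group mean and SD beside the points. INDOM-I arrays 49 and 50 are the highest of both genes, with Rbm3 at 8.65 and 9.03 and Cirbp at 7.73 and 7.86, while array 51 lies among the other groups.

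Rbm3 was higher in INDOM-I than in NaCl-I by 1.65 on the log2 scale (SE 0.29, 95% interval 1.06 to 2.24, adjusted p = 0.0344 by limma), a 3.15-fold difference. All 3 INDOM-I arrays were above all 4 NaCl-I arrays. Rbm3 was 1 of 3 clusters called there, 0.00818% of all tested, and the other 2 have no gene symbol. The next clusters by p, not called, had differences of both signs and included S100a8 (2.66) and S100a9 (2.79). The interferon level was -1.18 and -1.21 in INDOM-I arrays 49 and 50, against 0.15 to 1.53 in NaCl-I. Here and below, the shares count clusters called by adjusted p. The share of all clusters whose arrays separate fully between 2 groups is not given. The call was lost when any single one of these 7 arrays other than array 51 was left out, and without array 51 the difference was 2.23. Without arrays 49 and 50 the difference was 0.51 (adjusted p = 0.980), resting on array 51 alone for INDOM-I, whose spread is then assumed to be that of the other groups. With the array set as a block it was 1.76 (adjusted p = 0.925), and in arrays 41 to 56 alone, where NaCl-I is 1 array, it was 1.68 (adjusted p = 1.00).

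Against its own saline challenge, INDOM-I minus INDOM-III was 1.22 for Rbm3 (SE 0.28, adjusted p = 0.588), and 2 of 3 INDOM-I arrays, 49 and 50, were above all 5 INDOM-III arrays. Without them the difference was 0.072. In that comparison 3 clusters were called (0.00818%). Over both challenges, INDOM minus NaCl was 1.03 (SE 0.20, adjusted p = 0.226), the second smallest p of all clusters, where 1 cluster was called (0.00273%), and 0.46 without arrays 49 and 50. Under saline alone, INDOM-III exceeded NaCl-III by 0.41 (SE 0.28, 95% interval -0.16 to 0.97, adjusted p = 0.916), and 4 of 5 INDOM-III arrays were above all NaCl-III arrays, in a comparison where 0% of clusters were called. INDOM-I minus NaCl-I, INDOM-III minus NaCl-III and INDOM minus NaCl share arrays and are not separate evidence.

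Under the other inhibitors no array reached the Rbm3 values of arrays 49 and 50. It was 6.89, 7.13, 6.83, 7.26 and 6.76 in CEL-I and 6.83, 7.10, 7.24, 6.92 and 6.86 in CEL-III. In SC560-I it was 6.99, 6.73, 6.33, 6.71 and 7.40, and in SC560-III 6.67, 7.34, 6.88, 6.47 and 7.09. All 5 CEL-III arrays were above all 3 NaCl-III arrays, while CEL-I overlapped NaCl-I and both SC560 groups overlapped their NaCl groups. In CEL-III minus NaCl-III 0% of clusters were called, and the share of all clusters that separate in this way is not given. CEL minus NaCl was 0.35 (SE 0.19, 95% interval -0.03 to 0.74, adjusted p = 0.999) and SC560 minus NaCl was 0.23 (SE 0.19, 95% interval -0.15 to 0.62, adjusted p = 0.999). All 3 inhibitors are set against the same NaCl arrays, which had the lowest Rbm3 group means of the series.

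Celecoxib and SC-560 are related compounds, both pyrazoles with a trifluoromethyl group and a pair of aryl rings, of which celecoxib alone carries a sulfonamide. The 3 drugs were compared in 3 pairs, over both challenges and 10 days of injection each, with doses unknown here. CEL minus SC560 was 0.12 for Rbm3 (SE 0.17, 95% interval -0.23 to 0.47, adjusted p = 1.00), -0.061 for Cirbp (95% interval -0.24 to 0.12), 0.0065 for Hsph1 (95% interval -0.16 to 0.17) and -0.26 for Hspb1 (95% interval -0.59 to 0.07). Single arrays moved these values: Rbm3 was at 0.056 without SC560-I array 33, 0.067 without SC560-III array 39 and 0.19 without SC560-I array 35, and Hspb1 was at -0.15 without SC560-I array 31. Leaving out single arrays gave -0.10 to -0.026 for Cirbp and -0.021 to 0.033 for Hsph1. In that pair 0 of 6 genes were called by limma, where 1 cluster was (0.00273%), 0 of 6 by ordinary analysis of variance, and 0 of 6 had an unadjusted p below 0.05. INDOM minus CEL was 0.68 for Rbm3 (SE 0.18, adjusted p = 0.247) and INDOM minus SC560 was 0.80 (SE 0.18, adjusted p = 0.121), against 0.10 and 0.22 without arrays 49 and 50. Indometacin differs from the other 2 also in array set, so drug and array set cannot be told apart there.

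**Figure D2:**
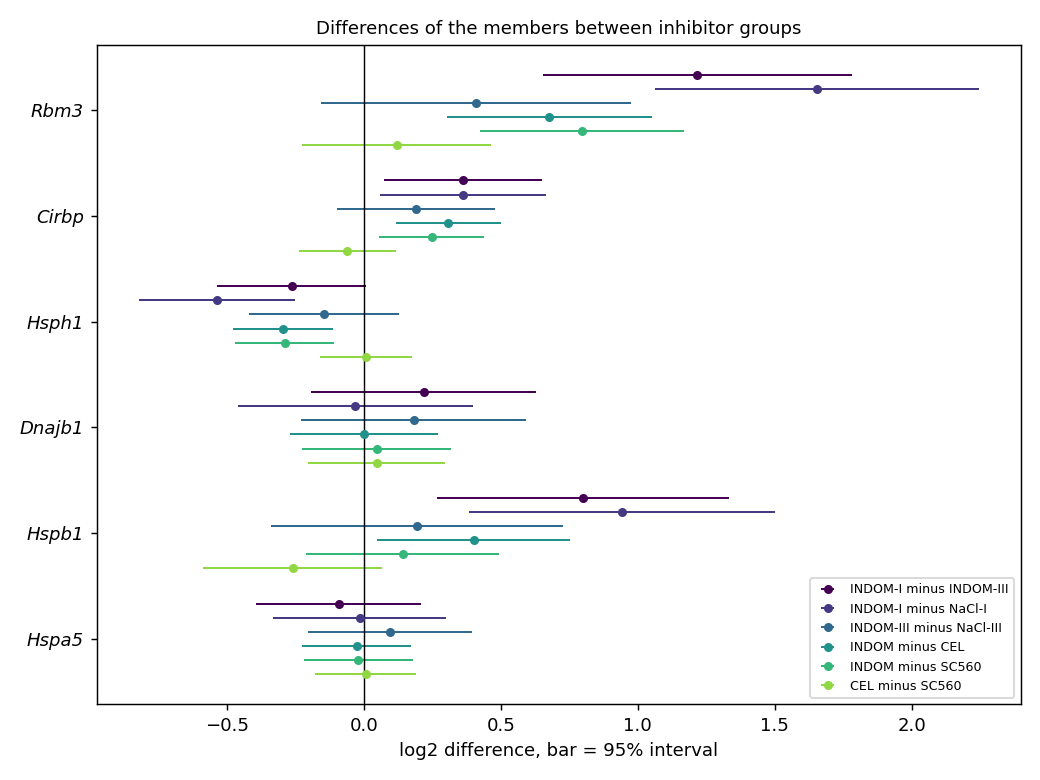
Log2 differences of the 6 measured genes (rows) in 6 comparisons among the inhibitor and saline pretreatments, points with 95% intervals from limma, the zero line marking no difference. Rbm3 has its highest value in INDOM-I minus NaCl-I (1.65), Hsph1 its lowest there (-0.54), and CEL minus SC560 lies near 0 for every gene but Hspb1 (-0.26).

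In the surgical groups and CNT Rbm3 lay between 6.50 and 7.54. It was 7.54, 7.16, 6.50, 7.25 and 7.53 in VAGX-I and 7.10, 7.01 and 6.74 in VAGX-III, and 7.23, 6.91, 6.97 and 7.12 in SHAM-I and 7.00, 7.00, 6.93 and 7.23 in SHAM-III. The groups overlapped, and VAGX minus SHAM was 0.025 (SE 0.15, 95% interval -0.29 to 0.34, adjusted p = 0.982). The sign of that difference was not stable, with -0.017 without VAGX-I array 46, 0.11 without the 8 arrays that go against their label, and -0.018 to 0.11 on leaving out single arrays. CNT arrays held 6.64, 6.50, 6.98, 7.38 and 6.63, the 7.38 being array 4. LPS over saline across the 6 pretreatments gave 0.20 for Rbm3 (SE 0.11, adjusted p = 1.00), 0.12 without array 50, 0.028 without arrays 49 and 50, -8.46e-05 in arrays 1 to 40 and 0.76 in arrays 41 to 56.

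Cirbp, the other cold-induced RNA-binding protein, was also highest in arrays 49 and 50. It was 7.73, 7.86 and 7.28 in INDOM-I, 7.20, 7.34, 7.25, 7.14 and 7.37 in INDOM-III, 7.38, 7.08, 7.45 and 7.13 in NaCl-I, and 7.02, 6.92 and 7.27 in NaCl-III. The other 54 arrays ran between 6.82 and 7.59, and array 51 lay among them. INDOM-I minus NaCl-I was 0.36 (SE 0.15, adjusted p = 0.917) and INDOM-I minus INDOM-III was 0.36 (SE 0.14, adjusted p = 0.915), both 0.020 without arrays 49 and 50. INDOM minus CEL was 0.31 (SE 0.09, adjusted p = 0.300) and INDOM minus SC560 0.25 (SE 0.09, adjusted p = 0.392), which became 0.14 and 0.077 without arrays 49 and 50. The 13 group means of Cirbp spanned 0.55, between 7.07 in NaCl-III and 7.62 in INDOM-I, and no neighbouring pair in their order differed by more than the larger SD.

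Hsph1, the large co-chaperone of the Hsp70 family (Hsp110), ran the other way. It was 8.05, 8.22 and 8.66 in INDOM-I and 8.42, 8.57, 8.68, 8.70 and 8.48 in INDOM-III, against 8.74, 9.04, 8.89 and 8.70 in NaCl-I and 8.66, 8.79 and 8.70 in NaCl-III. Arrays 49 and 50 were the lowest of the series, with the other 54 between 8.41 and 9.04, and all 3 INDOM-I arrays were below all 4 NaCl-I arrays. INDOM-I minus NaCl-I was -0.54 (SE 0.14, 95% interval -0.82 to -0.25, adjusted p = 0.713), and INDOM minus NaCl was -0.34 (SE 0.10, adjusted p = 0.582). Without arrays 49 and 50 these were -0.19 and -0.17. INDOM-III arrays, which hold neither of those arrays, were 0.27 below CNT arrays (8.69, 9.03, 8.95, 8.89 and 8.67; SE 0.11, adjusted p = 0.594), with 3 of 5 below every CNT array. All 5 INDOM-III arrays lie in the second array set and 4 of 5 CNT arrays in the first, so drug and set are not separated here. The CNT array of the second set, array 41, was at 8.67, below the INDOM-III values of 8.68 and 8.70. In INDOM-I minus INDOM-III the value of -0.26 (SE 0.13, adjusted p = 0.921) turned to 0.084 without arrays 49 and 50, and was -0.13 without array 49 and -0.44 without array 51.

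Dnajb1, the Hsp40 co-chaperone that hands unfolded proteins to Hsp70, had its lowest group mean in VAGX-III. It was 6.36, 6.08, 5.88, 5.92 and 6.02 in VAGX-I and 5.56, 5.21 and 5.77 in VAGX-III. SHAM-I held 6.27, 5.82, 5.95 and 6.20, SHAM-III 6.16, 5.99, 5.48 and 6.24, and CNT 6.16, 6.18, 6.19, 6.11 and 5.79. All 5 VAGX-I arrays were above all 3 VAGX-III arrays, in a comparison with 0.00273% of clusters called, and VAGX-III was below every CNT array (0% called) but overlapped SHAM-III. VAGX-I minus VAGX-III was 0.54 (SE 0.18, 95% interval 0.16 to 0.91, adjusted p = 0.551) and 0.64 without the 8 arrays that go against their label, while VAGX-III minus CNT was -0.57 (SE 0.18, adjusted p = 0.614). VAGX-III minus SHAM-III was -0.45 (SE 0.19, adjusted p = 0.563), and -0.30 without VAGX-III array 14. These 3 comparisons share the VAGX-III arrays.

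The difference of Dnajb1 between LPS and saline was not of 1 sign. In NaCl-I it was 6.08, 6.17, 6.15 and 6.33, all above the 5.58, 5.97 and 5.69 of NaCl-III, a difference of 0.43 (SE 0.21, adjusted p = 0.999, with 0% of clusters called). In CEL-I it was 5.98, 6.36, 5.85, 5.93 and 5.46, which overlapped 6.09, 6.50, 6.20, 5.70 and 6.34 in CEL-III, a difference of -0.25 (SE 0.17, adjusted p = 0.887), which was -0.13 without CEL-I array 25 and -0.16 without CEL-III array 27. The moderated F test of whether the LPS difference varied among the 6 pretreatments gave an adjusted p of 1.00 for Dnajb1, for Rbm3 and for Hsph1, and 0 of 36685 clusters were called in it (0%), with limma or by ordinary analysis of variance, while 3 of the 6 genes had an unadjusted p below 0.05, as did 1577 of all clusters (4.30%).

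**Figure D3:**
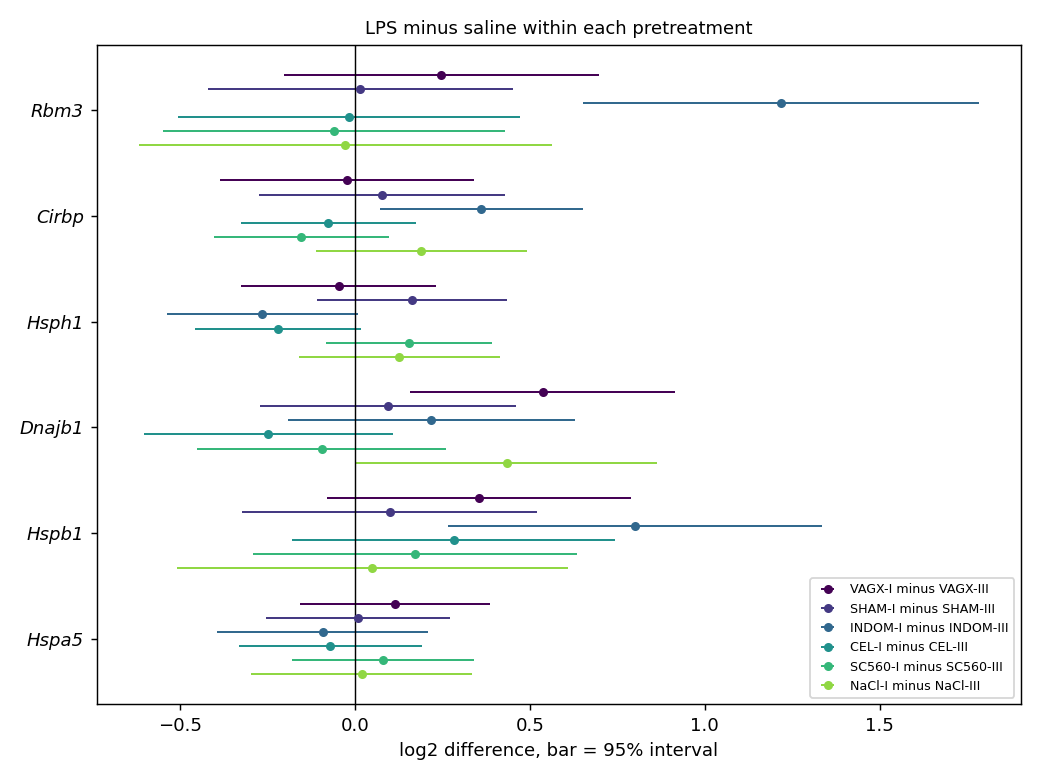
Log2 difference of LPS minus saline for the 6 measured genes (rows) within each of the 6 pretreatments, points with 95% intervals from limma. Rbm3 lies between -0.06 and 0.25 in every pretreatment but indometacin (1.22), and Dnajb1 runs between -0.25 in celecoxib and 0.54 in vagotomised rats.

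Hspb1, the small heat shock protein Hsp27 that keeps unfolding proteins from clumping, was higher in INDOM-I and in scattered arrays elsewhere. Of the measured genes it was the faintest (mean log2 intensity 4.72). It was 5.47, 5.82 and 5.01 in INDOM-I, 4.51, 5.25, 4.00, 4.63 and 4.80 in INDOM-III, 4.20, 4.63, 4.57 and 4.56 in NaCl-I, and 4.30, 4.44 and 4.59 in NaCl-III. SC560-I held 5.88, 5.15, 4.58, 4.45 and 4.85 and SC560-III 5.21, 5.04, 5.14, 4.34 and 4.31, and VAGX-I array 46, the array with the low hypothalamus markers, was at 5.55. INDOM-I arrays were all above NaCl-I arrays, while the series maximum, 5.88, was SC560-I array 31. INDOM-I minus NaCl-I was 0.94 (SE 0.27, adjusted p = 0.715) and INDOM-I minus INDOM-III 0.80 (SE 0.26, adjusted p = 0.915), against 0.52 and 0.38 without arrays 49 and 50. SC560 minus NaCl was 0.43 (SE 0.18, adjusted p = 0.999).

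Of the 6 genes Hspb1 also had the largest pooled difference of LPS over saline, 0.29 (SE 0.10, 95% interval 0.09 to 0.49, adjusted p = 0.502), and it was 0.17 in arrays 1 to 40, 0.54 in arrays 41 to 56, 0.21 without arrays 49 and 50 and 0.26 without the 8 arrays against their label. In that comparison 145 clusters were called (0.395%) and 0 of the 6 genes, by limma or by ordinary analysis of variance, with 1 of 6 at an unadjusted p below 0.05, beside 1797 of all clusters (4.90%). The pooled values were 0.12 for Dnajb1 (SE 0.08), 0.044 for Cirbp (SE 0.061), 0.0095 for Hspa5 (SE 0.051) and -0.016 for Hsph1 (SE 0.053). The value of Cirbp was 0.025 without array 49 and 0.018 without array 50, and its sign turned without both (-0.010), as did that of Hsph1 (0.032).

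Hspa5 varied least among groups. Its 13 group means lay between 9.14 in NaCl-III and 9.30 in CNT, a span of 0.16, below its pooled SD within groups of 0.17. Single arrays ran between 8.83 (INDOM-I array 49) and 9.60 (SC560-III array 36, which also had the highest interferon level). INDOM-I held 8.83, 9.32 and 9.27 and NaCl-I 9.14, 8.99, 9.11 and 9.38, which overlapped, and INDOM-I minus NaCl-I was -0.015 (SE 0.15, 95% interval -0.33 to 0.30, adjusted p = 0.999), but 0.14 without array 49 and 0.11 without arrays 49 and 50.

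**Figure D4:**
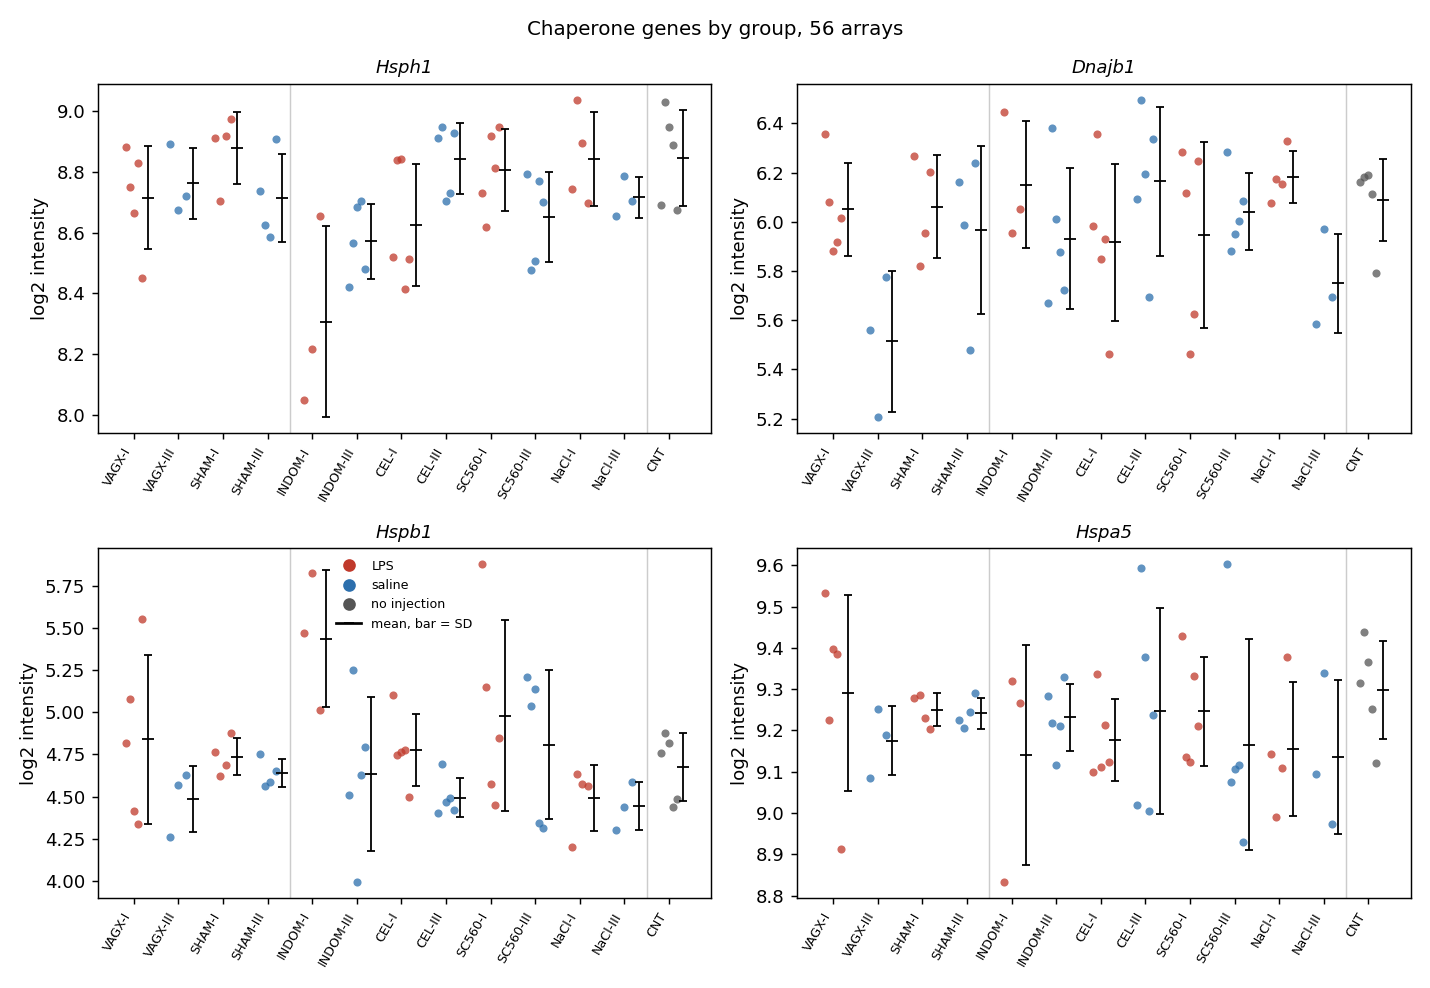
Log2 intensity of the chaperone genes Hsph1, Dnajb1, Hspb1 and Hspa5 in each of the 56 arrays by group, 1 point an array, red after LPS, blue after saline and grey without injection, with the group mean and SD beside the points. Hsph1 is lowest in INDOM-I arrays 49 and 50 (8.05 and 8.22), Dnajb1 has its lowest group mean in VAGX-III (5.51), and Hspa5 group means span 0.16.

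Over the 30 comparisons and F tests, 180 tests of a member were made, of which 1 passed an adjusted p of 0.05, and ordinary analysis of variance called 0. An unadjusted p below 0.05 was found in 32 of them by limma and in 34 by ordinary analysis of variance, while the share of all clusters with such a p ran between 3.00% and 8.95% in each comparison. In 15 of the comparisons no member had such a p by limma, while INDOM-I minus NaCl-I, INDOM minus NaCl and INDOM minus CEL had 4 each. The tests share arrays and the genes were chosen with results in view, so these counts do not measure an excess among the members. The F test over the 13 groups called 26 clusters (0.0709%) and none of the 6 genes, Rbm3 being nearest (adjusted p = 0.129), then Hsph1 (adjusted p = 0.467). Where some clusters but no member were called, the shares were 0.395% in the pooled LPS comparison, 0.00273% in VAGX-I minus VAGX-III, in INDOM minus NaCl and in CEL minus SC560, 0.00818% in INDOM-I minus INDOM-III, 0.0327% in INDOM minus CEL and 0.00545% in INDOM minus SC560. In 21 comparisons no cluster was called (0%) by either test, with 1101 to 2924 clusters at an unadjusted p below 0.05. These counts depended on the 8 arrays that go against their label. As LPS raises the interferon level by which they were picked, more LPS calls without them are built into the choice. NaCl-I and NaCl-III hold none of these arrays, so their count changed only through the variance estimated over the whole fit. Without them 32, 12, 32 and 43 clusters were called for LPS over saline within SHAM, NaCl, CEL and SC560, against 0 with them, 46 against 1 within VAGX, and 119 against 26 in the F test over 13 groups, while INDOM-I minus NaCl-I had 0 against 3, INDOM minus NaCl 0 against 1, INDOM minus CEL 0 against 12 and INDOM minus SC560 0 against 2.

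Some marker lists also stood apart in arrays 49 or 50. The blood list, 4 of 7 genes measured (Hba-a1, Hbb-b1, S100a8 and S100a9), was at 2.70, 2.90 and 0.87 in INDOM-I arrays 49, 50 and 51, against -0.41 to 2.41 in INDOM-III, -0.27 to 0.25 in NaCl-I and -0.90 to 0.92 over the arrays of the other LPS groups. All 4 genes were above their median in both arrays 49 and 50. S100a9, a calcium-binding protein of neutrophils, had log2 intensities of 7.19, 6.72 and 4.28 in INDOM-I, against a median of 3.15 over all arrays. INDOM-III array 53, with the highest blood level outside arrays 49 and 50 (2.41), also had the highest Rbm3 of its group, 7.51. The rest of that group did not keep this order. Array 52, next in blood level (0.65), had its lowest Rbm3 (6.52). Arrays 55 and 56, lowest in blood level (-0.41 and -0.35), lay above arrays 52 and 54 in Rbm3. The glucocorticoid-induced list (10 of 15 genes measured) was at 1.12, 0.85 and 0.62 in INDOM-I, against -0.78 to 1.36 over all arrays but 49 and 50. VAGX-I array 46 had the highest level (1.36), and INDOM-III array 53 (1.02) lay above array 50. The microglia list (9 of 10 genes measured) was at 0.47 and 0.60 in arrays 49 and 50, against 0.0084 in array 51 and -0.36 to 0.56 over all arrays but 49 and 50. INDOM-III array 53 (0.53) lay above array 49 in it. Of 7 vessel genes measured, 4 were above and 3 below their median in both arrays 49 and 50, and 2 were above every other array. Of 9 meninges genes measured, 7 were below and 0 above their median in both. The choroid plexus list was at 1.30, -0.12 and -0.039 in arrays 49, 50 and 51, array 49 being second only to array 46. The neuron list (3 of 7 genes measured) was at -0.30, -0.016 and -0.016 in arrays 49, 50 and 51. Array 49 was the second lowest of the 56, but the INDOM-III arrays were low as well, at -0.29 to -0.11. Low neuron levels were thus not particular to array 49. Their part in the Rbm3 difference was not tested.

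Across the 56 arrays, Rbm3 and the blood list had a Pearson r of 0.67 and a Spearman rho of 0.21, and r was 0.26 over the 54 arrays without 49 and 50. Within arrays 1 to 40 r was 0.05. Within arrays 41 to 56, which hold arrays 49 and 50, it was 0.82, and r in that set without them is not given. With the interferon list r was -0.04. These are descriptions over arrays that share groups and array sets.

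**Figure D5:**
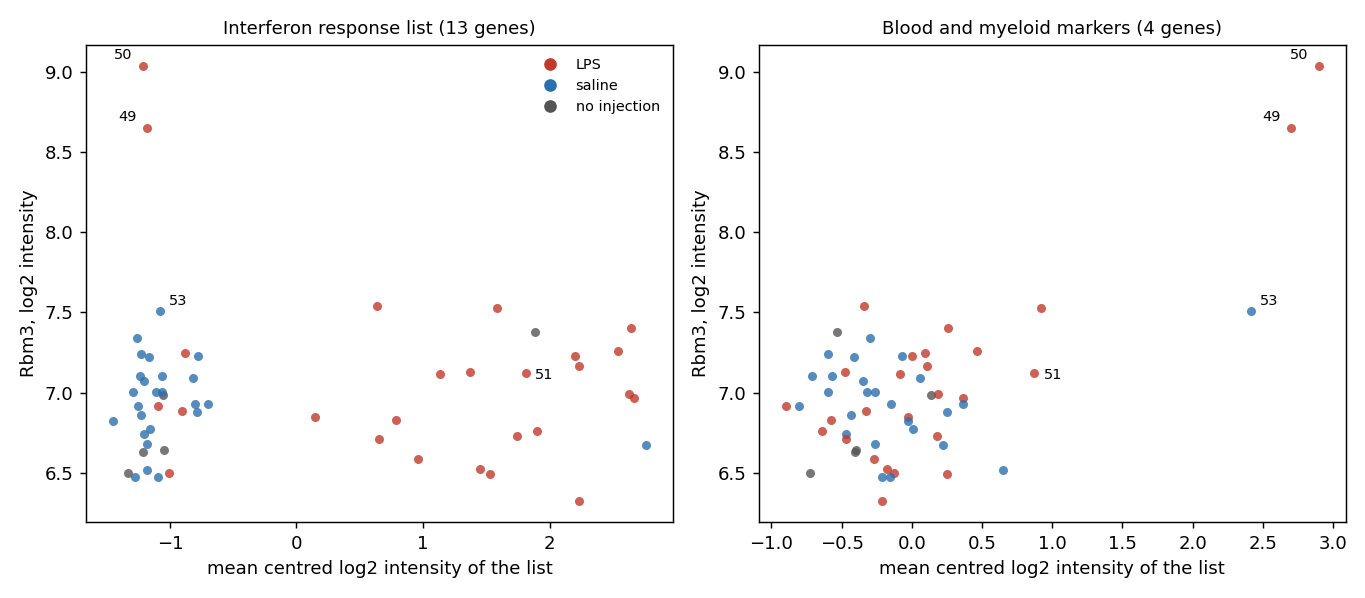
Rbm3 log2 intensity (vertical axis) in the 56 arrays against the mean centred log2 intensity of the interferon response list (left) and of the blood markers (right), 1 point an array, coloured by injection, with arrays 49, 50, 51 and 53 numbered. Arrays 49 and 50 combine the highest Rbm3 with interferon levels of -1.18 and -1.21, among the saline arrays, and with the highest blood levels, 2.70 and 2.90.

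Among the measured genes Cirbp had the highest r with Rbm3 over the 56 arrays, 0.59 (rho 0.46). It was 0.35 over the 54 arrays without 49 and 50, with 0.49 in arrays 1 to 40. In arrays 41 to 56, which hold arrays 49 and 50, it was 0.69. Hspb1 had an r of 0.54 with Rbm3 (rho 0.37), 0.30 without those arrays, and Dnajb1 0.28 (rho 0.31), 0.30 without them. Hsph1 had an r of -0.49 (rho -0.14), which was -0.09 without arrays 49 and 50, and Hspa5 had an r of -0.05 (rho 0.09).

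Within groups, after each gene's 13 group means were taken away, the 5 genes of 14556 with the highest r with Rbm3 were Rwdd3 (0.65), Stx6 (0.61), Rev1 (0.61), Gna12 (0.61) and Vwf (0.60), the last encoding von Willebrand factor of endothelium and platelets. Without arrays 49 and 50 they had 0.52, 0.53, 0.62, 0.45 and 0.43. The 3 lowest were Bcl2l12 (-0.62), Defb43 (-0.57) and Gpr27 (-0.56). Cirbp ranked 263 of 14556 (r 0.44, and 0.32 without those arrays), Hspb1 774 (0.37, and 0.28), Dnajb1 951 (0.35, and 0.43), Hspa5 9660 (-0.049, and -0.0016) and Hsph1 13036 (-0.22, and 0.018).

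Of the cold-responsive and splicing factor list, 14 of 20 genes were measured. INDOM minus NaCl was positive for 7 and negative for 7, with a median of 0.020 beside 0.0056 for all clusters and none called, and without arrays 49 and 50 the split was 9 and 5 with a median of 0.10. Besides Rbm3 and Cirbp, the splicing regulator Hnrnpa2b1 was at -0.20 (SE 0.09, adjusted p = 0.781) and the splicing factor Srsf7 at -0.25 (SE 0.15, adjusted p = 0.869). In INDOM-I minus NaCl-I the split was 9 and 5 and only Rbm3 was called. For LPS over saline it was 9 and 5 with none called, and Rbmx, another RNA-binding protein, was at -0.26 (SE 0.13, adjusted p = 1.00).

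Of the HSF1 and heat shock list, 32 of 41 genes were measured, and INDOM minus NaCl was positive for 10 and negative for 22, with a median of -0.12 beside 0.0056 for all clusters and none called. Hsph1 and Hspb1 belong to this list and had opposite signs. Chordc1, a partner of Hsp90, was at -0.32 (SE 0.09, adjusted p = 0.610) and Hspa4l, another Hsp110 family member, at -0.33 (SE 0.11, adjusted p = 0.699). Without arrays 49 and 50 the split was 8 and 24, with a median of -0.13. For LPS over saline the split was 21 and 11, with a median of 0.014 beside -0.0028 for all clusters and none called. Cryab, another small heat shock protein gene, was at 0.39 (SE 0.13, adjusted p = 0.374) and Bag3, a co-chaperone that works with small heat shock proteins, at 0.14 (SE 0.07, adjusted p = 1.00).

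Of the list of endoplasmic reticulum chaperones and unfolded protein response genes, 26 of 35 were measured. LPS over saline was positive for 13 and negative for 13, with a median of 9.89e-04, and only the transcription factor Atf3 was called, higher by 0.89 (SE 0.11, adjusted p = 3.24e-06). Atf3 also stands in the list of immediate early genes. INDOM minus NaCl was positive for 8 and negative for 18 of this list, with a median of -0.048 and none called, and Hyou1, a chaperone of the same compartment as Hspa5, was at -0.18 (SE 0.11, adjusted p = 0.868).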

How the data were processed

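Total RNA of single samples was hybridised to Affymetrix rat gene array strips. The deposited series table holds linear intensity values for 36685 transcript clusters in 56 arrays. Per the labels the submitters' processing notes name Affymetrix Expression Console and RMA. The authors' methods for part of the series describe RMA background correction, quantile normalization, log2 values and median polish, so levels are relative within this normalization. The table's values ran between 1.75 and 7820, with array medians between 16.4 and 18.9, and log2 was taken of them here. No comparison by the authors was used. Precision is limited by the number of arrays, and p-values measure the spread between them.

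Gene symbols came from the platform annotation: 14824 clusters had 1 symbol, 829 several and 21032 none. The members and gene lists were chosen with earlier results of these data known. Groups came from the labels. Differences were fitted with limma (version 3.58.1 in R 4.3.3; lmFit, contrasts.fit, eBayes) over all clusters, with Benjamini-Hochberg adjustment and a threshold of 0.05, in 21 arrays for the surgical groups with CNT, in 35 for the drug groups, in 51 for LPS over saline with the pretreatment as a term, and in 56 for the other groups against CNT and the F test. A comparison over both challenges averages the 2 groups of each pretreatment. List levels leave out the members. Named genes were the members, the 5 highest and 3 lowest correlations with Rbm3 within groups, and up to 4 genes a list with the smallest p. Other named genes were chosen after their values were seen. The fits were tested on simulated data. Alternatives were ordinary analysis of variance, eBayes with trend and robust settings, a filter at the median intensity, repeated quantile normalization, leaving out second runs, the array set as a block, each array set alone, all 56 arrays in one fit, and each array left out, with 3 more added after seeing the data: without array 46, without arrays 49 and 50, and without the 8 arrays whose interferon level goes against their label. Second runs were taken to be the arrays with an extra 2 in their title, which the labels do not explain. Correlations and sequences were computed in Python 3.11.15 with pandas 2.3.3.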

Additional observations from a re-analysis of the deposited data

Results flagged for a closer look

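In 60 groups of 4 to 5 arrays over the 6 genes, 3 arrays lay far from the rest of their group, measured as the gap to the nearest other array over the range of the group. Chance alone flags about 1 in 20 groups. Dnajb1 in CNT array 41 was 5.79, against 6.11 to 6.19 in the other 4 arrays (gap share 0.799). Hspb1 in NaCl-I array 16 was 4.20, against 4.56 to 4.63 in the other 3 (gap share 0.839). Hspa5 in SC560-III array 36 was 9.60, against 8.93 to 9.12 in the other 4 (gap share 0.723), and this array also had the highest interferon level of the series. INDOM-I, where Rbm3 was highest, has 3 arrays and was not examined in this way.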

How the results depend on the processing

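Of 1152 values of 42 reported differences under the alternatives, 1104 kept their sign and their side of the threshold, 31 changed sign, 11 lost a call and 6 gained one. The 1 gene called in INDOM-I minus NaCl-I, Rbm3, gave 0 called genes by ordinary analysis of variance (1.65), with the array set as a block (1.76), in arrays 41 to 56 alone (1.68), and without arrays 49 and 50 or without the 8 arrays against their label (0.51 in both). Leaving out each of the 7 arrays gave 0 to 1 called genes and differences between 1.27 and 2.23, with the call kept only without array 51. Rbm3 was called, 1 gene in place of 0, with all 56 arrays in one fit in INDOM minus NaCl (1.03) and INDOM minus SC560 (0.80), and after a second quantile normalization in the F test over 13 groups. Leaving out single arrays gave 0 to 1 called genes in that F test, in the F test of the LPS difference, and in INDOM-I minus INDOM-III, INDOM minus NaCl, INDOM minus CEL and INDOM minus SC560; array 51 gave the 1 in each, and array 11 also in the first. Signs turned in the pooled LPS difference for Rbm3 in arrays 1 to 40 (-8.46e-05); for Cirbp without arrays 49 and 50 (-0.010) or without the 8 arrays (-0.039); for Hsph1 in arrays 1 to 40 (0.019), without arrays 49 and 50 (0.032), without the 8 arrays (0.055) and on leaving out single arrays (-0.027 to 0.0090); and for Hspa5 in arrays 41 to 56 (-6.38e-04) and on leaving out single arrays (-2.86e-03 to 0.032). Hsph1 in INDOM-I minus INDOM-III was 0.084 and Hspa5 in INDOM-I minus NaCl-I 0.11 without arrays 49 and 50 and without the 8 arrays. Rbm3 in VAGX minus SHAM was -0.013 without second runs and -0.017 without array 46. Leaving out single arrays gave -0.018 to 0.11 for it, -0.10 to 0.14 for Hspa5 in INDOM-I minus NaCl-I and -0.021 to 0.033 for Hsph1 in CEL minus SC560. In the pooled LPS comparison 145 clusters were called, against 56 in arrays 1 to 40, 0 in arrays 41 to 56 and 258 without the 8 arrays. Some gain without the 8 arrays is built into their choice by an interferon level that LPS raises, and how much of it was not tested. The causes of the other changes were not tested. Averaging a gene's clusters changes nothing, as each gene has 1. No paired analysis was possible because the groups share no replicate numbers. The number of arrays, 3 to 5 a group, limits what can be detected.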

Other observations

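The glucocorticoid-induced list (10 of 15 genes measured, none of the chaperone or cold genes among them) was set beside Hspb1 and Rbm3. Correlations of all measured genes with every list were computed, of which only some are given. An r over all arrays includes the differences between groups, among them that of LPS. Hspb1 was the faintest of the measured genes (mean log2 intensity 4.72). Over the 56 arrays Hspb1 had a Pearson r of 0.60 and a Spearman rho of 0.47 with that list. Over the 54 arrays without 31 and 50, the farthest from the Hspb1 median, r was 0.54. In arrays 1 to 40 r was 0.42, and in arrays 41 to 56, which hold arrays 49 and 50, r was 0.82. Rbm3 had an r of 0.39 with the list, 0.25 without arrays 49 and 50. In the pooled comparison of LPS over saline, 9 of the 10 glucocorticoid-induced genes were called higher, with a median of 0.71 beside -0.0028 for all clusters, and 11 of 13 interferon genes, with a median of 2.02, where 0.395% of all clusters were called. The gene pattern nearest to Rbm3 over all 56 arrays, without taking group means away, was that of Ptpn11 (r 0.70, and 0.49 without arrays 49 and 50), followed by S100a9 (0.69, and 0.30) and S100a8 (0.69, and 0.26), which were named after their values were seen. All these values come from the same arrays, and no p is given.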
